A study of Homo sapiens with 18 samples.

Results

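The genes described here are the cAMP and protein kinase A pathway, measured in SH-SY5Y cells. This established line comes from a human neuroblastoma and acquires neuron-like features when grown with retinoic acid. The genes were chosen by name: 44 of the 58735 genes in the deposited count table, in 9 classes that follow the signal from the cyclases that make cAMP, through the kinase subunits, kinase inhibitors and phosphodiesterases, to the CREB transcription factors, their coactivators, the Epac exchange factors and the anchoring proteins. The rule uses no measured value. All 44 genes were found, and 38 had enough reads to be tested.

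RNA was sequenced from 18 libraries of wild-type SH-SY5Y cells, all of which had been grown in 10 µM all-trans retinoic acid for 7 days to differentiate them. The cells then received a compound or water for 15 min, with 3 libraries in each of 6 groups: morphine at 193 nM, metamorphine at 169 nM, TRV130 (a G-protein-biased opioid agonist) at 200 nM, beta-endorphin (an endogenous opioid peptide) at 200 nM, naloxone (an opioid receptor antagonist) at 200 nM and water (Control). Library names also end in 1 of 3 codes, called C, B and A here, and what the codes stand for is not stated in the labels. Code C was on 5 libraries, code B on 6 and code A on 7. Each compound and Control had 1 library per code, apart from TRV130, with 2 in code A, 1 in code B and 0 in code C. The labels do not say whether the 3 libraries of a group are separate cultures, so the p-values cover the variation among these libraries and that variation may be technical.

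Opioid receptors couple to inhibitory G proteins, which hold back the membrane adenylyl cyclases and so lower cAMP. cAMP binds the regulatory subunits of protein kinase A and frees the catalytic subunits, which phosphorylate targets that include the transcription factor CREB. Phosphodiesterases break cAMP down, anchoring proteins tether the kinase near its targets, and the Epac proteins carry a branch of cAMP signalling that does not need the kinase. Most of this control acts on protein activity, while the libraries measured RNA levels only.

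CREB1, CREM and ATF1 proteins bind the cAMP response element, an 8-base palindrome, so the promoters of the pathway's own genes that hold it are shown. Of 111 RefSeq promoter windows of these genes (GRCh38.p14, 300 bases around a start site, 37 genes matched), 6 windows from 4 genes held TGACGTCA, which reads the same on both strands. That was 5.41% of the windows, against 1.84% of 34943 windows of all genes. The shorter TGACG, which TGACGTCA contains, was found on either strand in 24.3% of these windows and 24.5% of all windows. A match is a description of the letters and not a binding site. The 4 genes were CREM (chr10:35195652-35195951, plus strand, a window wholly inside the annotated span of the gene), PDE4A (chr19:10416523-10416822, plus strand), PDE7B (chr6:135851451-135851750, plus strand) and PRKAR1A (chr17:68512180-68512479, plus strand, also a window wholly inside the annotated span of the gene). 1 window of each follows, with TGACGTCA in capitals; TGACGTCA begins 50 bases before the start site in CREM, 3 in PDE4A, 155 in PDE7B and 49 in PRKAR1A.
CREM: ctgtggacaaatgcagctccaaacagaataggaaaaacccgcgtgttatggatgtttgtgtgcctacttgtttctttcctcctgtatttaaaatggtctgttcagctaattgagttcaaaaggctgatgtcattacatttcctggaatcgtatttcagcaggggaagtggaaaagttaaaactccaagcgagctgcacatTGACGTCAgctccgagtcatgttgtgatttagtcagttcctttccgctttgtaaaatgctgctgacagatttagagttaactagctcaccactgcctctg
PDE4A: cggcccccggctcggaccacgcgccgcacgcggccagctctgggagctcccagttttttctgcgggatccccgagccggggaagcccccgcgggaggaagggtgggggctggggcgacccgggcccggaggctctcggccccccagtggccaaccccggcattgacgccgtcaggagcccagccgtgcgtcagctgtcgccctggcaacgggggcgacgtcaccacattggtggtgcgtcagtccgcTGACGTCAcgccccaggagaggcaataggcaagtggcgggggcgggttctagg
PDE7B: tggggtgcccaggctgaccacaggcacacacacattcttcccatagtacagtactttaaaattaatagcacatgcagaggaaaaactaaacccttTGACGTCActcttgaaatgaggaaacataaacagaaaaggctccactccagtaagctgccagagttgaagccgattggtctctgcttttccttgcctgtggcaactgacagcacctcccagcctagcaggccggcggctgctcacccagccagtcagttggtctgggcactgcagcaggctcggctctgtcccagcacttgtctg
PRKAR1A: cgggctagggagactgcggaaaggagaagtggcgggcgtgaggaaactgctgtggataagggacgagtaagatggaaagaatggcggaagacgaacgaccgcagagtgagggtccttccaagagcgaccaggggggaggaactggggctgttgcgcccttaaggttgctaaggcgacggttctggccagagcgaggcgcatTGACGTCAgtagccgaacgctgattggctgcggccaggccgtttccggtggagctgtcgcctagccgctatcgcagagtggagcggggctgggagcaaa

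A library held between 21211449 and 33123855 counts, and the 44 genes together took between 0.127% (Control 1) and 0.196% (Beta-endorphin 2) of a library. The line's 6 noradrenergic markers summed to 3559.7 to 4941 CPM (read counts scaled to a common library size after TMM normalization), with TH at a mean of 0.103 CPM, and the 7 neuronal markers to 1431 to 2271 CPM. Control 1 stood apart in sums of markers of other cell types, although SOX10, S100B (Schwann) and PTPRC (immune) were highest in other libraries. The 5 epithelial markers summed to 2.51 to 5.36 CPM in the compound libraries, against 13.8 CPM in Control 1, and the 3 endothelial markers to 0.0946 to 1.87 CPM, against 5.62 CPM in Control 1. The 5 immune markers summed to 4.48 to 10.6 CPM in the compound libraries, against 12.5 CPM in Control 1, and the 5 Schwann markers to 3.67 to 6.34 CPM, against 10.7 CPM in Control 1. Of these lists, KRT19, CDH1, PTPRC, CD3E, PECAM1 and CDH5 were at 0 in at least 1 library. The 5 fibroblast markers summed to 132 to 242 CPM in the compound libraries, against 146 CPM in Control 1.

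Levels between genes are given per length, as CPM per kilobase of exon, with the SD over the 18 libraries. Among the cyclases, ADCY6, a calcium-inhibited form, averaged 15.5 ± 4.29 CPM per kilobase and made up 40.3% of the class, followed by ADCY3 at 8.51 ± 1.34 and the calcium- and calmodulin-stimulated ADCY1 at 7.78 ± 2.74 CPM per kilobase. ADCY5 stood at 2.72 ± 0.415, ADCY7 at 2.71 ± 0.575 and ADCY9 at 0.793 ± 0.208 CPM per kilobase. ADCY10, the soluble cyclase that responds to bicarbonate, averaged 0.0698 ± 0.0662, ADCY8 0.0443 ± 0.0262, ADCY4 0.0158 ± 0.0451 and ADCY2 0.0024 ± 0.00793 CPM per kilobase. In this order ADCY3 and ADCY1, and ADCY5 and ADCY7, differed in mean by less than their SDs.

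Both catalytic subunits were present, PRKACA at 13.3 ± 1.96 and PRKACB at 9.0 ± 1.84 CPM per kilobase. The regulatory subunits had the highest summed level of the 9 classes, 94.7 ± 12.2 CPM per kilobase. The type I forms PRKAR1A (40.5 ± 8.69) and PRKAR1B (37.8 ± 5.38) outweighed the type II forms PRKAR2B (11.9 ± 3.48) and PRKAR2A (4.62 ± 0.94), and the type I pair differed in mean by less than its SDs. The inhibitor genes PKIG and PKIA, whose short products block the free catalytic subunit, averaged 21.5 ± 6.21 and 11.4 ± 3.63 CPM per kilobase, while PKIB averaged 0.0528 ± 0.0313.

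No single phosphodiesterase dominated. PDE4B, a cAMP-specific enzyme, averaged 7.55 ± 1.02 CPM per kilobase, or 27.5% of the class, PDE8A 6.26 ± 0.894, PDE7A 5.06 ± 0.478 and PDE3B, which cGMP inhibits, 3.31 ± 0.691. PDE4D (1.16 ± 0.178), PDE7B (1.13 ± 0.304) and PDE3A (1.05 ± 0.28) did not differ beyond their spread. PDE4A averaged 0.827 ± 0.167, PDE8B 0.706 ± 0.137 and PDE4C 0.376 ± 0.145 CPM per kilobase. The calcium-stimulated PDE1A, PDE1B and PDE1C averaged 0.0308 ± 0.0196, 0.0111 ± 0.0401 and 0.00526 ± 0.0162 CPM per kilobase.

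CREB1 (5.06 ± 0.933), ATF1 (5.05 ± 1.38) and CREM (3.93 ± 1.25 CPM per kilobase) were close to each other. Of the coactivators, CRTC2 averaged 23.1 ± 5.16, CRTC1 9.54 ± 2.0 and CRTC3 4.81 ± 0.692 CPM per kilobase. The Epac class was almost wholly RAPGEF4 (Epac2), at 0.831 ± 0.142 CPM per kilobase and 91% of the class, with RAPGEF3 (Epac1) at 0.0794 ± 0.0251. Of the anchors, AKAP1, which tethers the kinase at mitochondria, averaged 6.91 ± 1.32, AKAP12 3.17 ± 0.866, AKAP6 0.895 ± 0.19 and the postsynaptic AKAP5 0.606 ± 0.134 CPM per kilobase. The libraries carry no strand, and other genes overlap at least 20% of the exon bases of ADCY3 (24.6%, CENPO), ADCY7 (41.6%, BRD7), PDE8B (41.6%, AC022414.1) and PDE4C (70.7%, AC008397.2), so the reads of these 4 are uncertain.

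**Figure D1:**
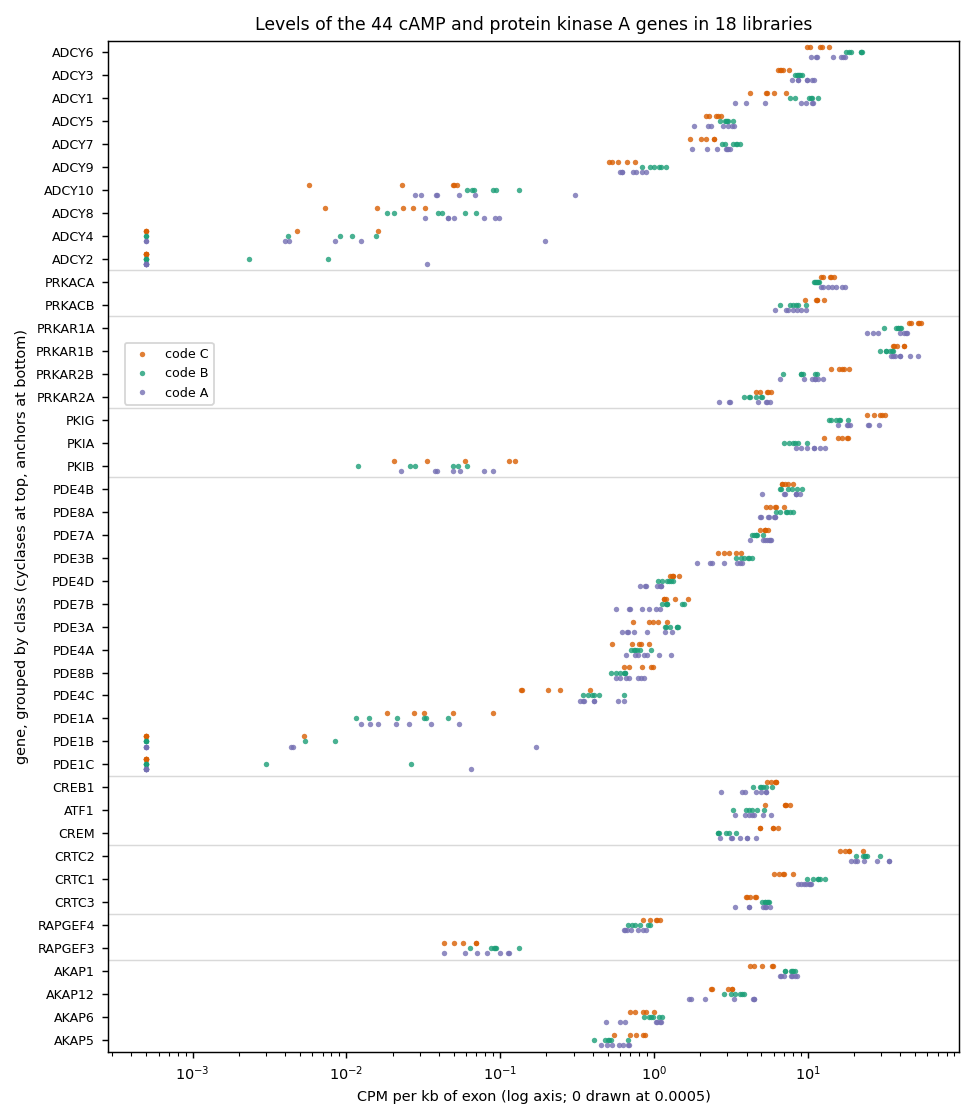
Level of each of the 44 genes in CPM per kilobase of exon (log axis, 0 drawn at the left edge), grouped by class; each point is 1 of the 18 libraries, coloured by library code. PRKAR1A and PRKAR1B have the highest means of all genes, 40.5 and 37.8, and ADCY2, PDE1B and PDE1C are at 0 in most libraries.

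The 6 genes that could not be tested were ADCY2, ADCY4, PKIB, PDE1A, PDE1B and PDE1C. For 4 of them most of the reads lay in 1 library: Control 1 held 13 of 17 ADCY2 reads, 35 of 54 ADCY4 reads, 29 of 35 PDE1B reads and 20 of 30 PDE1C reads. PKIB and PDE1A, with 84 and 92 reads in all, had reads in every library. With no filter on low counts, ADCY2, ADCY4, PDE1B and PDE1C were called lower in the mean of the 5 compounds than in Control (edgeR, adjusted p = 0.0101, 0.00625, 0.0101 and 0.0232). Those calls rest on Control 1, in which the sums of the epithelial, endothelial, immune and Schwann markers were also highest. The part of these markers in the result was not tested.

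The comparisons with Control ask whether a compound moved the pathway's transcripts within 15 min. None of the 38 tested genes passed in any of them. PDE4B, AKAP6 and PRKAR2A, an enzyme that degrades cAMP, an anchor and a kinase subunit, were repeatedly among the smallest p-values, with log2 fold changes between -0.14 and 0.65. The value of -0.14 was that of PRKAR2A with TRV130, which had no code C library, in a fit without the library code. Against the Control library of the same code, the log2 difference of PRKAR2A was 0.22, 0.23 and 0.11 in TRV130 1, 2 and 3. By edgeR's quasi-likelihood test with Benjamini-Hochberg adjustment, 0 of 38 genes were called with morphine, metamorphine, TRV130, beta-endorphin or naloxone, and the background was 0% of 23231 genes in each. DESeq2 also called 0 of the 38 in each. An unadjusted p under 0.05 was reached by 1 of the 38 with morphine (background 4.06%), 5 with metamorphine (7.83%), 0 with TRV130 (1.85%), 6 with beta-endorphin (9.46%) and 1 with naloxone (6.65%). At the median gene the 95% interval of the log2 fold change with morphine extended 0.555 to each side, and 0.341 when the library code was part of the fit. With the code in the fit edgeR again called 0 of the 38 in each compound, and an unadjusted p under 0.05 was reached by 10 with morphine (14.7% of all tested genes), 16 with metamorphine (23.6%), 1 with TRV130 (4.46%), 17 with beta-endorphin (27.8%) and 13 with naloxone (22.5%).

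PDE4B had 76.7, 73.5 and 58.9 CPM in Morphine libraries 1, 2 and 3, 73, 79.7 and 69.2 CPM in Metamorphine, 61, 61.1 and 68.5 CPM in TRV130, 72.6, 64.3 and 61.6 CPM in Beta-endorphin and 72.8, 58.2 and 64.5 CPM in Naloxone, against 43.9, 56.8 and 59.2 CPM in Control. Its Metamorphine, TRV130 and Beta-endorphin libraries all lay above the 3 Control libraries, and its Morphine and Naloxone libraries overlapped with Control. The log2 fold change of PDE4B was 0.39 ± 0.155 with morphine (SE; edgeR adjusted p = 0.823), 0.47 ± 0.155 with metamorphine (adjusted p = 0.595), 0.25 ± 0.155 with TRV130 (adjusted p = 1.0) and 0.29 ± 0.155 with naloxone (adjusted p = 0.655). Without Control 1 the values were 0.25, 0.35, 0.11 and 0.17 in the same order. Without Control 3 they were 0.48, 0.56, 0.34 and 0.38. Morphine and metamorphine were given at different doses, so no comparison was made between them.

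AKAP6, an anchor at the nuclear envelope of muscle cells and neurons, had 21.9, 18.2 and 14.8 CPM in Morphine libraries 1, 2 and 3, 20.4, 21.2 and 16.8 CPM in Metamorphine, 11.8, 12.8 and 18.9 CPM in TRV130, 21.6, 22.2 and 19.7 CPM in Beta-endorphin and 20.6, 19.6 and 17.4 CPM in Naloxone, against 9.63, 17 and 13.7 CPM in Control. All Beta-endorphin and all Naloxone libraries lay above Control. TRV130 1 and 2 lay above Control 1, of the same code A, and below Control 2 and 3, of codes B and C. The log2 fold change of AKAP6 was 0.65 ± 0.223 with beta-endorphin (SE; edgeR adjusted p = 0.513), 0.53 ± 0.223 with metamorphine (adjusted p = 0.595), 0.51 ± 0.223 with naloxone (adjusted p = 0.655) and 0.44 ± 0.222 with morphine (adjusted p = 0.823). Without Control 1 the values of AKAP6 were 0.45, 0.34, 0.33 and 0.24. Without Control 2 they were 0.86, 0.74, 0.72 and 0.65.

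PRKAR2A, a type II regulatory subunit, had 36, 28 and 30.8 CPM in Morphine libraries 1, 2 and 3, 37.9, 33.2 and 36 CPM in Metamorphine, 20.6, 20.7 and 27.7 CPM in TRV130, 35.8, 33.3 and 38.2 CPM in Beta-endorphin and 31.5, 30.5 and 36.9 CPM in Naloxone, against 17.6, 25.6 and 32.7 CPM in Control. The Metamorphine and Beta-endorphin libraries lay above Control without overlap. Its log2 fold change was 0.50 ± 0.198 with metamorphine, 0.50 ± 0.198 with beta-endorphin and 0.38 ± 0.198 with naloxone (SE; edgeR adjusted p = 0.595, 0.513 and 0.655), and 0.29, 0.27 and 0.18 without Control 1. Without Control 3 the values of PRKAR2A were 0.73, 0.73 and 0.61. In the test of any difference among the 6 groups, PRKAR2A was the 1 gene of the 38 with an unadjusted p under 0.05 (background 2.43%), and 0 of the 38 and 0% of all genes were called.

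AKAP12, an anchor also known as gravin, had 38.6, 24.9 and 20.5 CPM in Morphine libraries 1, 2 and 3, 38.8, 31.9 and 26.4 CPM in Metamorphine, 14.9, 18.7 and 29.5 CPM in TRV130, 39.3, 33.9 and 28.3 CPM in Beta-endorphin and 28.9, 32.7 and 28 CPM in Naloxone, against 15.2, 27.6 and 20.9 CPM in Control. All Beta-endorphin and Naloxone libraries lay above Control, and TRV130 1 was below Control 1. Its log2 fold change with beta-endorphin was 0.67 ± 0.283 (SE; edgeR adjusted p = 0.513), 0.46 without Control 1 and 0.90 without Control 2. CRTC2, the coactivator that is dephosphorylated to enter the nucleus, had 75.4, 85.4 and 83 CPM in Morphine libraries 1, 2 and 3, 73, 74.3 and 66.8 CPM in Metamorphine, 122, 102 and 87.1 CPM in TRV130, 68.9, 83 and 62.7 CPM in Beta-endorphin and 83.4, 85 and 58.5 CPM in Naloxone, against 122, 107 and 66.7 CPM in Control. Control 1, TRV130 1 and TRV130 2 were the highest of code A, and the Control range overlapped with every compound. The log2 fold change of CRTC2 was -0.46 ± 0.211 with metamorphine and -0.46 ± 0.211 with beta-endorphin (SE; edgeR adjusted p = 0.595 and 0.513), and -0.28 and -0.29 without Control 1. Without Control 3 the values of CRTC2 were -0.67 and -0.67.

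ADCY10, ADCY5, ADCY7 and PDE4A complete the genes with the 4 smallest p-values in a compound. ADCY10 is near the detection limit, with 1 to 20 reads in each compound library, against 42, 13 and 7 reads in Control 1, 2 and 3. Its log2 fold change was -1.58 ± 0.794 with morphine, -1.64 ± 0.796 with TRV130 and -1.58 ± 0.794 with naloxone (SE; edgeR adjusted p = 0.823, 1.0 and 0.655), and -0.53, -0.58 and -0.52 without Control 1. Without Control 3 it was -1.99 with morphine and -2.05 with TRV130, and without Naloxone 2 it was -2.30 with naloxone. With morphine the log2 fold change of ADCY5 was 0.37 ± 0.198 (adjusted p = 0.823), 0.22 without Control 1 and 0.58 without Control 2. With TRV130 that of ADCY7 was 0.39 ± 0.251 and that of PDE4A -0.31 ± 0.264 (adjusted p = 1.0 for both). That of ADCY7 was 0.20 without TRV130 3 and 0.65 without Control 2. Without Control 1 that of PDE4A was -0.01, and without Control 3 it was -0.58. The sign of PDE4A turned to 0.0319 without Control 1, Naloxone 1 and Naloxone 2, a fit that kept no code A Control.

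Averaged over the 5 compounds, PDE4B, AKAP6 and ADCY7 again had values above 0 and ADCY10 below, and no gene was called. The log2 fold change was 0.34 ± 0.123 for PDE4B, -1.49 ± 0.552 for ADCY10, 0.45 ± 0.178 for AKAP6 and 0.44 ± 0.201 for ADCY7 (SE; edgeR adjusted p = 0.434, 0.434, 0.434 and 0.436). Of the 38 genes 4 had an unadjusted p under 0.05, against a background of 11.4%, and 0 were called, against 0%. Without Control 3, edgeR called 366 genes in this comparison, and 0 of the 38. Without Control 1, Naloxone 1 and Naloxone 2, the values were 0.23 for PDE4B, 0.25 for AKAP6 and 0.29 for ADCY7. That fit kept no code A Control and held Naloxone 3 alone for naloxone. Without Control 2 the values were 0.66 for AKAP6 and 0.70 for ADCY7, and without Control 3 0.43 for PDE4B. ADCY10 was at -0.43 without Control 1 and at -1.90 without Control 3. DESeq2 with the library code as a block called ADCY7 (log2 fold change 0.42, adjusted p = 0.038), and edgeR with that block called 0 of the 38. In that edgeR fit an unadjusted p under 0.05 was reached by 17 of the 38, against 29.7% of all tested genes.

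Most of the 38 genes had fold changes above 0 against Control in each compound but TRV130, in comparisons that share the 3 Control libraries. The library code was not in these fits, and TRV130 had no code C library. Against the Control library of the same code, 25, 26 and 27 of the 38 were above 0 in TRV130 1, 2 and 3. The backgrounds there were 54.1%, 51.9% and 48.1%, and the part of the codes was not tested. In the fits, the number above 0 was 26 with morphine (background 46.4%), 28 with metamorphine (46.8%), 19 with TRV130 (47.2%), 27 with beta-endorphin (46.4%) and 26 with naloxone (46.3%). The median log2 fold change of the 38 was 0.15 with morphine, 0.23 with metamorphine, 0.01 with TRV130, 0.25 with beta-endorphin and 0.16 with naloxone, and the median over all tested genes lay between -0.04 and -0.02. By class, in the mean of the 5 compounds (27 of 38 above 0, background 46%), 4 of 4 anchors, 6 of 8 cyclases, 3 of 4 regulatory subunits and 7 of 10 phosphodiesterases had values above 0, with class medians of 0.30, 0.29, 0.27 and 0.10. These are counts of signs and not of calls. In the same comparisons 6 of 7 neuronal markers were above 0 in each compound (medians 0.07 to 0.29). So were 0 of 3 tested epithelial markers (-1.28 to -0.81), 0 of 3 immune markers (-0.87 to -0.05) and 0 or 1 of 5 Schwann markers (-1.26 to -0.60). Of 4 fibroblast markers 3, 4, 2, 3 and 4 were above 0 with morphine, metamorphine, TRV130, beta-endorphin and naloxone. Of 5 noradrenergic markers it was 3, 3, 4, 2 and 2 in the same order. The 1 tested endothelial marker was below 0 in each compound. The part of all these markers in the result was not tested. Without Control 1, Naloxone 1 and Naloxone 2 the medians of the 38 were 0.07 with morphine, 0.11 with metamorphine, -0.07 with TRV130, 0.12 with beta-endorphin and 0.04 with naloxone. That fit had no code term, kept no code A Control and held Naloxone 3 alone for naloxone. With 1 library left out in turn, the medians ran from 0.06 to 0.20, 0.11 to 0.27, -0.14 to 0.06, 0.10 to 0.24 and 0.05 to 0.22 in the same order.

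All 3 libraries lay above the 3 Control libraries for 0 of 38 genes with morphine (background 2.97%), 2 with metamorphine (5.21%), 1 with TRV130 (1.74%), 4 with beta-endorphin (6.11%) and 3 with naloxone (4.35%). The gene not yet named among them is PDE3B, with 40.4, 51.2 and 39.9 CPM in Naloxone libraries 1, 2 and 3, against 22.2, 39.9 and 33.6 CPM in Control, so that the groups nearly touched. All 3 libraries lay below Control for 0 of 38 genes in each compound, against backgrounds of 2.19% with morphine, 4.14% with metamorphine, 1.74% with TRV130, 4.51% with beta-endorphin and 3.5% with naloxone.

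Because the codes differ, each compound library was also set against the Control library of its own code. ADCY7 and AKAP6 were above it in all 15 compound libraries, 2 of 38 genes (5.26%) against 3.71% of all tested genes, and 0 of 38 were below it in all 15, against 2.78%. ADCY7, a cyclase stimulated by G protein beta-gamma subunits, had 26.8, 25 and 21.2 CPM in Morphine libraries 1, 2 and 3, 25.6, 29.5 and 17.5 CPM in Metamorphine, 22.2, 19 and 29.8 CPM in TRV130, 25.7, 31.3 and 21.3 CPM in Beta-endorphin and 26, 28.1 and 18.9 CPM in Naloxone, against 15.3, 23.9 and 14.7 CPM in Control. Each compound overlapped with Control, whose highest library was Control 2. The mean log2 difference of ADCY7 from the Control library of its code was 0.41 in code C, 0.26 in code B and 0.65 in code A, and that of AKAP6 0.32 in code C, 0.23 in code B and 0.87 in code A. Only 1 Control library stands behind each code, so these differences carry no error of the Control.

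Differences in code A rest on Control 1. They were the largest of the 3 codes for PDE4B, PRKAR2A, AKAP12, ADCY1, AKAP6, CREB1, PRKAR2B and PDE3B, among others, but not for ADCY9 or PKIA. For PDE4B they averaged 0.10 in code C, 0.27 in code B and 0.66 in code A, for PRKAR2A 0.11 in code C, 0.25 in code B and 0.74 in code A, for AKAP12 0.29 in code C, 0.14 in code B and 0.87 in code A and for ADCY1 0.50 in code C, 0.29 in code B and 1.20 in code A on the log2 scale. In Morphine 1, Metamorphine 1, Beta-endorphin 1 and Naloxone 1 the median log2 difference of the 38 genes from Control 1 was 0.41, 0.38, 0.38 and 0.33, whereas in TRV130 1 and TRV130 2, also of code A, it was 0.12 and 0.14. In code B the medians ran from 0.06 (Morphine 2) to 0.18 (Metamorphine 2), and in code C from 0.04 (Morphine 3) to 0.15 (Beta-endorphin 3). ADCY1 had 149.6, 146, 135 and 126 CPM in Morphine 1, Metamorphine 1, Beta-endorphin 1 and Naloxone 1 and 54.6 and 73.1 CPM in TRV130 1 and 2, against 46.4 CPM in Control 1. By these medians and in ADCY1, the TRV130 libraries of code A lay nearer to Control 1 than the other 4 compound libraries did.

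PDE4A, a cAMP-specific phosphodiesterase with 82 to 216 reads in a library, was highest of all libraries in Control 1 and lowest in Control 3. It had 5.69, 5.37 and 6.2 CPM in Morphine libraries 1, 2 and 3, 5.24, 4.92 and 5.35 CPM in Metamorphine, 5.95, 4.36 and 4.69 CPM in TRV130, 4.98, 5.01 and 5.48 CPM in Beta-endorphin and 7.19, 5.15 and 4.81 CPM in Naloxone, against 8.55, 6.41 and 3.54 CPM in Control. In code C all 4 compound libraries lay above Control 3, in code B all 5 lay below Control 2 and in code A all 6 lay below Control 1. Mean log2 differences were 0.61 in code C, -0.35 in code B and -0.63 in code A, and the difference between codes was not tested. The compound libraries of a code share 1 Control library, so their common direction is not repeated evidence.

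**Figure D2:**
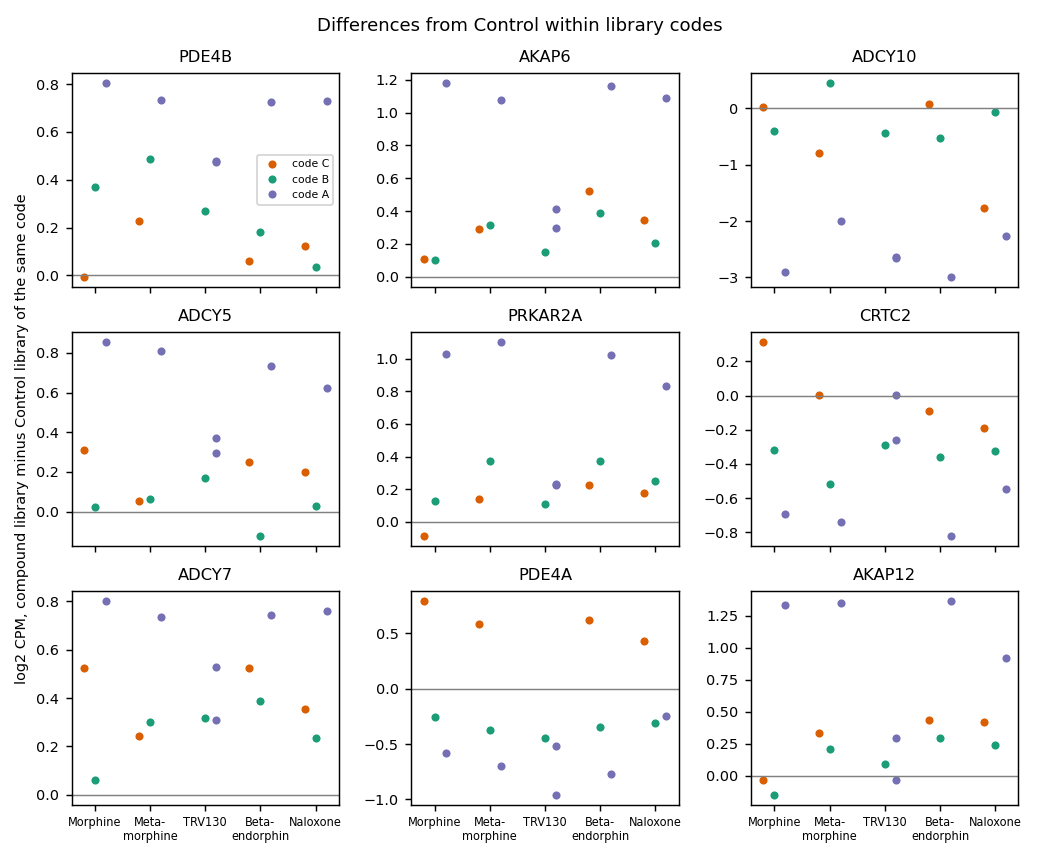
Difference in log2 CPM of each compound library from the Control library of the same code for 9 genes among the smallest p-values against Control; 1 point per compound library, coloured by code, with the line at 0 marking the Control level. All 15 points of ADCY7 and AKAP6 lie above 0, and the PDE4A points lie above 0 in code C and below 0 in codes B and A.

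Naloxone, the antagonist, was also set against the mean of the other 4 compounds. No gene of the 38 was called (0, background 0%), 0 had an unadjusted p under 0.05 (0.366%), and 22 were above 0 (50.1%), with a median log2 fold change of 0.02. The smallest p-values were those of PRKACA (log2 fold change -0.16 ± 0.142, SE), PDE8B (-0.20 ± 0.209), PRKAR1B (-0.13 ± 0.145) and PDE4C (-0.33 ± 0.373), each with an edgeR adjusted p of 1.0. The median 95% interval extended 0.439 to each side, so the data leave room for differences of that size.

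The pathway around these genes gave no call either. Of 18 upstream genes (G proteins and receptors) 14 were tested, of 19 other cAMP effectors 18, and of 20 CREB targets 14, and edgeR called 0 against Control with any compound. An unadjusted p under 0.05 was reached by 0 upstream genes in each compound, by up to 4 of 18 effectors (beta-endorphin, background 9.46%) and by up to 3 of 14 CREB targets (TRV130, background 1.85%). The library code was not in these fits, and TRV130 had no code C library. GNAS, the stimulatory G protein subunit that activates the cyclases, averaged 3936 CPM, the delta opioid receptor gene OPRD1 88.7 CPM and the mu opioid receptor gene OPRM1 11.8 CPM. In the test of any difference among the 6 groups the smallest p-values were those of GNAZ, GNAI2 and ADCYAP1R1 upstream and of AKAP8L, BVES and HCN2 among the effectors (edgeR adjusted p = 1.0 for each).

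Few CREB targets had values above 0 against Control, and none was called. The number above 0 was 1, 2, 3, 2 and 3 of 14 with morphine, metamorphine, TRV130, beta-endorphin and naloxone in that order, while 46.3% to 47.2% of all tested genes were above 0, with medians of the list of -0.40, -0.32, -0.32, -0.28 and -0.23 on the log2 scale. In the mean of the 5 compounds FOS, an immediate early transcription factor gene, had a log2 fold change of -0.68 ± 0.284, FOSB -0.94 ± 0.404 and DUSP1, a MAP kinase phosphatase gene, -0.38 ± 0.278 (SE; edgeR adjusted p = 0.434, 0.434 and 0.539). FOS ranged from 138 to 465 CPM over the 18 libraries, and the Control libraries themselves had 169, 407 and 465 CPM. In the same comparisons 0 of 3 epithelial, 0 of 3 immune and 0 or 1 of 5 Schwann markers were above 0. Of 4 fibroblast markers 2 to 4 were above 0, of 5 noradrenergic markers 2 to 4 and of 7 neuronal markers 6. The part of all these markers in the result was not tested. CREB targets respond to signals other than cAMP as well.

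The library codes, unlike the compounds, went with called differences in the pathway. In a fit with treatment group and code together, 27 of 38 genes differed among the codes (edgeR, adjusted p under 0.05), 71.1% against a background of 57.8% of all tested genes, so the pathway lies in a transcriptome that differed widely. Code C against code B gave 24 of 38 (background 54.8%), with 10 higher (26.9%) and 14 lower (27.8%). Code C against code A gave 19 (33.2%), with 11 higher (16.1%) and 8 lower (17.1%), and code B against code A 13 (26.9%), with 9 higher (11.5%) and 4 lower (15.5%). Cell type markers differed by code as well: for C over B, 6 of 7 neuronal markers were above 0 and 4 called higher (median 0.37). Of 4 fibroblast markers 2 were above 0 and 2 were called lower (median -0.55). The 1 tested endothelial marker, VWF, with a mean of 0.977 CPM, was called lower (-1.73). Their part in the code differences was not tested. Values above 0, called or not, were 16 of 38 for C over B (47.4%), 17 for C over A (48.2%) and 24 for B over A (51.4%).

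In code C against code B, 7 of 8 cyclases and 3 of 3 coactivators were called lower, and 2 of 2 catalytic subunits, 2 of 2 inhibitors, 2 of 4 regulatory subunits and 2 of 3 CREB factors were called higher. Of the lower cyclases, the calls of ADCY5 and ADCY10 held in 4 and 9 of 24 alternative fits, and that of PDE3B in 11. The phosphodiesterases were divided, with PDE8B called higher and PDE3A, PDE3B and PDE4C called lower of 10, as were the anchors, with AKAP5 higher and AKAP1 lower of 4. Neither Epac gene was called.

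**Figure D3:**
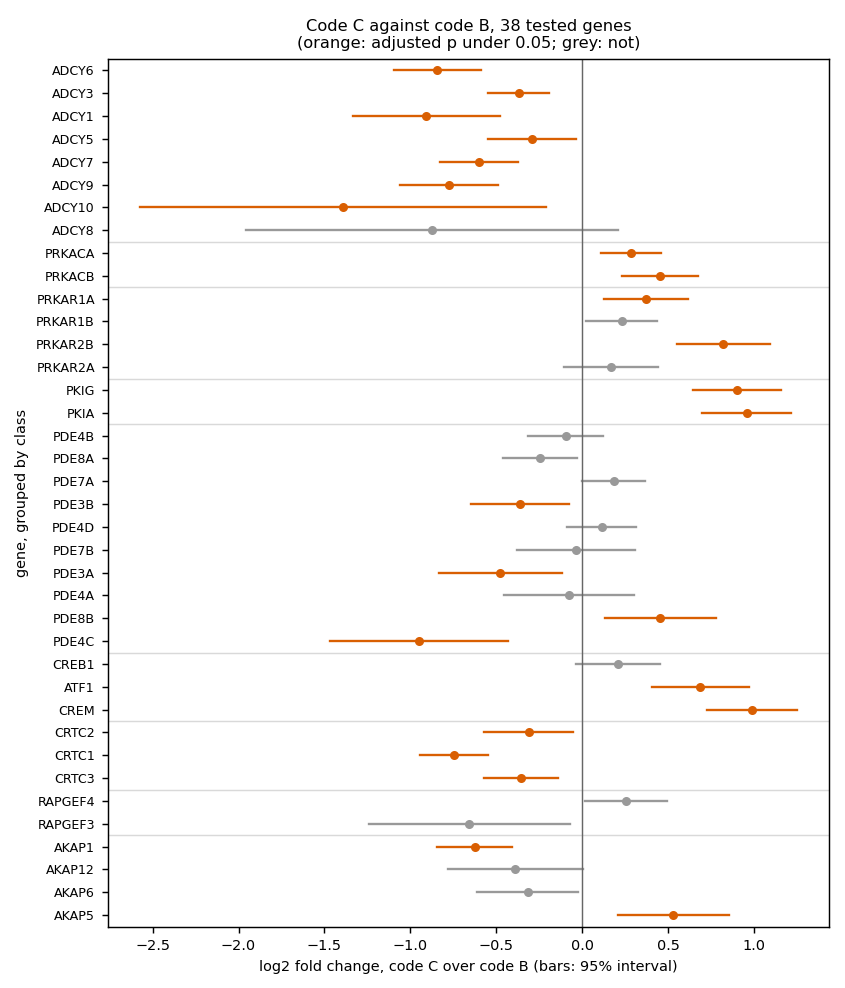
Log2 fold change of code C over code B for the 38 tested genes, grouped by class, with 95% intervals from the fit of treatment group and code; orange genes passed an adjusted p of 0.05 and grey genes did not. The cyclases and coactivators lie left of 0 and the kinase subunits, inhibitors and CREB factors right of it.

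Values by code follow in the order morphine, metamorphine, TRV130, beta-endorphin, naloxone and Control, with no TRV130 value in code C and 2 in code A. CREM, which encodes activators and, from an internal promoter, the cAMP-induced repressor ICER, had 27.9, 33.9, 27.9, 34.1 and 36.6 CPM in code C, 19.6, 16.8, 17.6, 15.2, 14.9 and 14.8 CPM in code B and 18.4, 18, 22.8, 23, 20.6, 15.4 and 26.2 CPM in code A. Every code C library lay above every library of codes B and A. The log2 fold change of CREM was 0.99 ± 0.123 for code C over B (SE; edgeR adjusted p = 1.79e-05) and 0.70 ± 0.123 for code C over A (adjusted p = 0.000893). Counts per gene do not separate ICER from the longer CREM transcripts.

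CRTC1, a coactivator abundant in neurons, had 55.6, 48.4, 49.2, 42.3 and 45.6 CPM in code C, 69.1, 75.3, 81.6, 90.2, 81.4 and 83.3 CPM in code B and 73.5, 70.8, 63.1, 66.4, 68.4, 71.6 and 59.9 CPM in code A. All code C values lay below all code B and code A values. The log2 fold change was -0.74 ± 0.0939 for code C over B and -0.50 ± 0.0932 for code C over A (SE; edgeR adjusted p = 1.88e-05 and 0.0012). CRTC2 was lower as well, at -0.31 ± 0.122 for C over B and -0.34 ± 0.123 for C over A (adjusted p = 0.0395 and 0.043), and these calls held in 9 and 7 of 24 alternative fits. CRTC3 was lower in C than in B at -0.36 ± 0.101 (adjusted p = 0.00699).

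Both tested inhibitor genes were higher in code C. PKIA had 53.8, 77.1, 66.1, 75.7 and 70.3 CPM in code C, 41.8, 36.3, 35, 33.7, 31.9 and 29.4 CPM in code B and 50.7, 46.2, 35.1, 41.5, 54.5, 46.4 and 38.2 CPM in code A. PKIG had 67, 75.8, 60.3, 74.1 and 80.0 CPM in code C, 45.9, 40.2, 38.3, 35.2, 34.4 and 39.7 CPM in code B and 44.8, 39.4, 61.4, 62.2, 47, 45.8 and 72.6 CPM in code A. Codes C and B did not overlap in either gene, and codes C and A did. For code C over B the log2 fold change was 0.96 ± 0.122 in PKIA and 0.90 ± 0.121 in PKIG (SE; edgeR adjusted p = 1.94e-05 and 2.53e-05), and for code C over A 0.58 ± 0.12 and 0.50 ± 0.121 (adjusted p = 0.00235 and 0.0063).

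Among the kinase subunits, PRKAR2B, the type II regulatory form enriched in neurons, averaged 71.7 ± 7.11 CPM in code C (SD, n = 5), 41.1 ± 7.13 CPM in code B (n = 6) and 45.2 ± 8.43 CPM in code A (n = 7). Its log2 fold change was 0.82 ± 0.128 for C over B and 0.68 ± 0.128 for C over A (SE; edgeR adjusted p = 7.52e-05 and 0.00131). PRKAR1A, the ubiquitous type I subunit, had 313, 363, 356, 370.3 and 318 CPM in code C, 263, 263, 257, 273, 277 and 213 CPM in code B and 299, 289, 181, 195, 302, 271 and 167 CPM in code A. Every code C value lay above those of codes B and A, with log2 fold changes of 0.37 ± 0.115 over B and 0.45 ± 0.113 over A (adjusted p = 0.0117 and 0.00719). PRKACA had 87.6, 85.5, 77.7, 74.9 and 91.5 CPM in code C, 73.1, 67.8, 71.4, 69.6, 68.2 and 70.3 CPM in code B and 74.6, 82.9, 108, 103, 88.8, 77.1 and 93.4 CPM in code A. It was higher in C than in B (0.28 ± 0.0831, adjusted p = 0.0086) and not called between C and A (-0.03 ± 0.0839, adjusted p = 0.788). PRKACB was higher in C than in both, at 0.45 ± 0.104 over B and 0.47 ± 0.104 over A (adjusted p = 0.00165 and 0.00357).

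The makeup of the kinase pools per length is given by code. Of the catalytic level, PRKACA was 54.5% in code C, 58.3% in code B and 64.4% in code A. In the regulatory level, PRKAR1B made up 35% in code C, 39.3% in code B and 45.2% in code A, and PRKAR2B 14.9% in code C, 11.1% in code B and 11.4% in code A. The summed regulatory level was 111 ± 2.98 CPM per kilobase in code C, 85.1 ± 5.8 in code B and 91.3 ± 7.54 in code A (SD, n = 5, 6 and 7), and the summed cyclase level 29.5 ± 3.56 CPM per kilobase in code C, 46.2 ± 4.07 in code B and 37.5 ± 8.09 in code A. Of these shares and sums no test was made.

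ADCY6 had 101, 87.7, 116, 103 and 82.8 CPM in code C, 149, 160.0, 185, 188, 189 and 155 CPM in code B and 147, 143, 95.7, 96.8, 122, 138 and 88.6 CPM in code A. Codes C and B did not overlap, and code A overlapped with C. Its log2 fold change was -0.84 ± 0.12 for C over B and 0.53 ± 0.107 for B over A (SE; edgeR adjusted p = 4.00e-05 and 0.00378), and its call for C over A (-0.32 ± 0.118, adjusted p = 0.0486) held in 6 of 24 alternative fits. ADCY3, a cyclase of neuronal cilia, was lower in code C at -0.37 ± 0.0833 over B and -0.50 ± 0.083 over A (adjusted p = 0.00145 and 0.00062). ADCY1 (-0.91 ± 0.202), ADCY9 (-0.77 ± 0.135) and ADCY7 (-0.60 ± 0.107) were also lower in code C than in code B (adjusted p = 0.00131, 0.000183 and 0.000229).

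AKAP1 had 32, 24.1, 31.6, 27.2 and 22.9 CPM in code C, 38.6, 43.1, 42.2, 44.4, 42.8 and 38.6 CPM in code B and 41.8, 44.7, 35.4, 36.3, 37.8, 45.8 and 42.6 CPM in code A. Every code C value lay below every value of codes B and A, with log2 fold changes of -0.62 ± 0.103 over B and -0.60 ± 0.102 over A (SE; edgeR adjusted p = 0.000121 and 0.000739). AKAP5 was higher in code C than in B at 0.53 ± 0.152 (adjusted p = 0.00766). CREB1 had 52.3, 60.0, 59.2, 58.9 and 55.4 CPM in code C, 46.6, 48.7, 47.3, 51.3, 56.3 and 42.1 CPM in code B and 51.2, 51.5, 35.8, 37.6, 47.3, 43.9 and 26 CPM in code A. Its log2 fold change was 0.42 ± 0.116 for C over A (adjusted p = 0.0114) and 0.21 ± 0.116 for C over B (adjusted p = 0.137). ATF1 was higher in C than in both, at 0.69 ± 0.133 over B and 0.61 ± 0.132 over A (adjusted p = 0.000456 and 0.00313).

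RAPGEF4, the Epac form of brain and endocrine cells, had 6.7, 7.81, 7.34, 7.43 and 6.05 CPM in code C, 6.68, 6.51, 4.86, 5.8, 5.15 and 5.35 CPM in code B and 5.06, 6.05, 4.54, 4.6, 6.35, 5.63 and 4.77 CPM in code A. The ranges of the codes overlapped, and the log2 fold change was 0.34 ± 0.113 for C over A (SE; edgeR adjusted p = 0.0287) and 0.26 ± 0.113 for C over B (adjusted p = 0.0639). PDE4B, the leading phosphodiesterase, was not called between C and the other codes (C over B -0.09 ± 0.103, C over A -0.07 ± 0.103, adjusted p = 0.455 and 0.607). PDE4C averaged 1.45 ± 0.66 CPM in code C (SD, n = 5), 2.84 ± 0.698 CPM in code B (n = 6) and 2.87 ± 0.812 CPM in code A (n = 7) and was lower in C than in both (adjusted p = 0.00383 and 0.00903), although most of its exon bases overlap another gene. PDE7B and PDE4D were higher in C than in A at 0.61 ± 0.159 and 0.39 ± 0.0939 (adjusted p = 0.00866 and 0.00571).

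**Figure D4:**
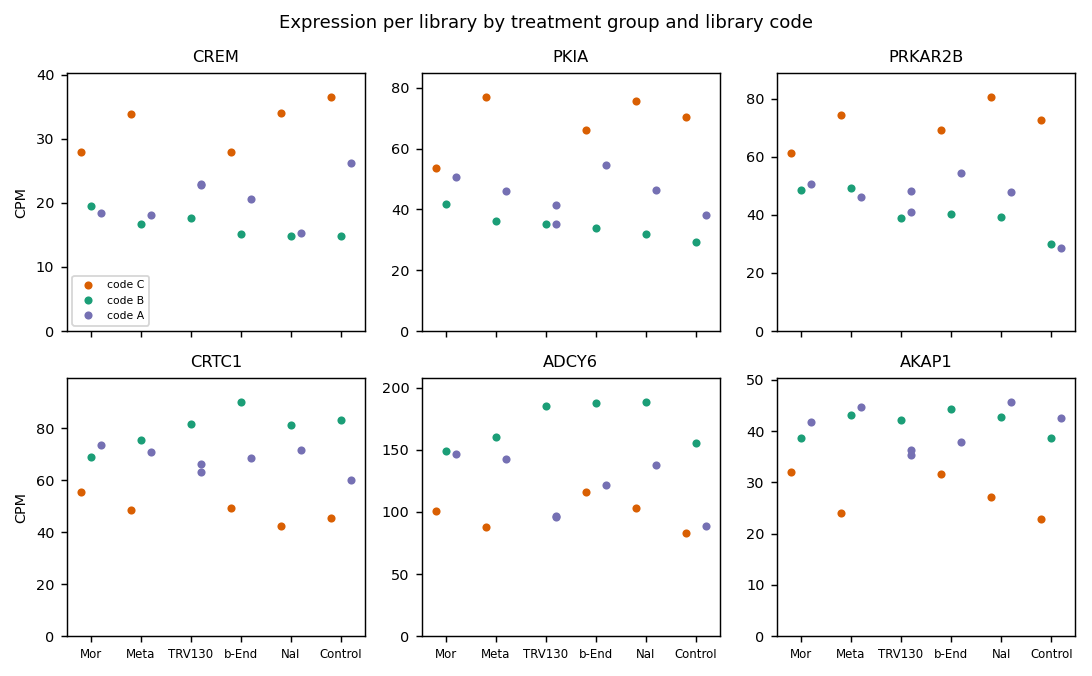
CPM of CREM, PKIA, PRKAR2B, CRTC1, ADCY6 and AKAP1 in every library, by treatment group, with library codes C, B and A side by side in colour. In each group that has a code C library, it is the highest point of the group in the top row and the lowest in the bottom row.

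Code C was called apart from both other codes for 7 genes that were lower (ADCY3, ADCY6, ADCY7, PDE4C, CRTC1, CRTC2 and AKAP1; 18.4% against 14.1% of all tested genes) and 7 that were higher (PRKACB, PRKAR1A, PRKAR2B, PKIA, PKIG, CREM and ATF1; 18.4% against 13.6%). Of the 24 calls between C and B, 17 held in the same direction in each of 24 alternative fits, and of the 19 between C and A 11 did. Of the 13 calls between B and A, ADCY6 alone did.

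The called genes also differed in base composition. The GC content of the longest transcript had a median of 55.7% in the 14 genes lower in code C than in B, 39.8% in the 10 higher and 44.4% in the 14 not called, while over all tested genes the same medians were 53.0%, 46.3% and 48.0%. Across the 38 genes Spearman's rho between GC content and the log2 fold change was -0.55 for C over B and -0.73 for C over A, and across all tested genes with a GC value -0.20 and -0.32. This correlation is across genes of the same libraries, which are not independent replicates. GC content moved with the code differences of the pathway, and its part in them was not tested. PKIG was an exception, with 55.1% GC and a higher level in code C than in codes B and A. PRKACA, with 54.2% GC, was also called higher in C than in B, and PRKAR1B, with 62.4% GC, was above 0 there without a call.

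**Figure D5:**
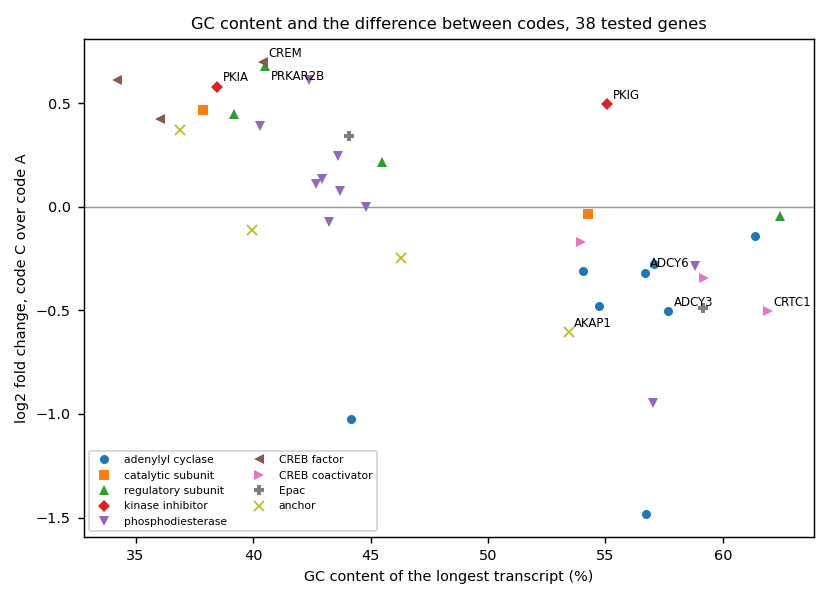
Log2 fold change of code C over code A against the GC content of the longest transcript for the 38 tested genes; marker shape and colour give the class, and 8 genes are named. Apart from PKIG, at 55.1% GC, the GC-rich genes on the right lie below 0, while most genes on the left lie above it.

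The surrounding pathway differed by code as well. In the test of any difference among codes, 10 of 14 upstream genes, 11 of 18 other effectors and 14 of 14 tested CREB targets were called, against 57.8% of all tested genes. For code C over B, the inhibitory subunit genes GNAI1 and GNAI3 had log2 fold changes of 0.61 ± 0.113 and 0.58 ± 0.102, GNAS 0.49 ± 0.145, and the receptor genes OPRM1 and OPRD1 -1.57 ± 0.202 and -1.29 ± 0.181 (SE; edgeR adjusted p = 0.000288, 0.000211, 0.0097, 2.04e-05 and 3.59e-05). Among the effectors the anchor AKAP9 (-1.14 ± 0.16) and the channel HCN3 (-0.96 ± 0.136) were lower and POPDC3 (0.76 ± 0.109) higher in code C than in B, and among the CREB targets PER1 (-0.86 ± 0.0973) and VGF (-0.81 ± 0.181) were lower and DUSP1 (0.68 ± 0.164) and NPY (0.66 ± 0.172) higher. In bulk RNA fewer cells of a type and less RNA per cell cannot be told apart.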

How the data were processed

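The authors deposited 1 table of raw counts, whole reads per Ensembl gene, for 18 libraries. Per the labels' protocols the libraries were not strand-specific. The submitters' processing notes name FastQC, HISAT2, featureCounts, DESeq2 and GRCh38, without versions. Symbols, exon lengths and transcript GC content came from GENCODE 29, which held all 58735 IDs; 2 TRV130 codes written with an extra leading digit were read as code A. The column name of Control 1 lacks a digit of its library code and was matched by the rest of the name, which no other library shares.

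Counts were fitted with edgeR 4.0.16 in R 4.3.3 (TMM, filterByExpr with a minimum count of 10, robust quasi-likelihood test) over all 18 libraries, with treatment groups only for the compounds and with groups plus code for the codes; two-sided p-values were Benjamini-Hochberg adjusted over 23231 genes (threshold 0.05). The spread between libraries (biological coefficient of variation) came to 0.309 without the code and 0.182 with it. CPM used TMM-scaled library sizes, and differences within a code a prior count of 2. Alternatives were DESeq2 1.42.0, RLE scaling, no filter, blocks and left-out libraries. In Naloxone and Control every same-numbered pair, which shares a code, deviated together (correlations 0.249, 0.726 and 0.702). The correlation of Control 1 was -0.258 with Morphine 1, -0.0501 with Metamorphine 1, 0.0996 with Beta-endorphin 1 and 0.457 with TRV130 1.

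Genes with full statistics were the 4 smallest p-values of each treatment comparison and the 8 smallest of the code test, with values by library for the most abundant of each class and, from other lists, called genes or the 3 smallest p-values; further genes were named after their values were seen. Members and lists were chosen with earlier results of these data known. The fits were tested on simulated data whose spread was close to that of the fit with the code. The compound comparisons, fitted without the code, have a larger spread, so that run does not measure their sensitivity.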

Additional observations from a re-analysis of the deposited data

Results flagged for a closer look

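PRKAR1A in Control 2 lay apart from the other libraries of code B. It had 213 CPM, while the nearest library had 257 CPM and the highest 277 CPM. It was 1 of 36 sets of libraries examined, and a chance rate of about 1 in 20 gives 1.8 among 36.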

How the results depend on the processing

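The number of the tested genes called against Control stayed at 0 in each treatment comparison with RLE size factors, with DESeq2, with edgeR blocks, without Control 1, Naloxone 1 and Naloxone 2, and without each library in turn. The mean of the 5 compounds was the exception, with 4 calls when low counts were not filtered and 1 (ADCY7) in DESeq2 with a code block. Code B against code A, with 13 calls, gave 3 to 15 when 1 library was left out (3 without TRV130 3, when 10.5% of all genes were called; 7 without Naloxone 2 or Control 2, with 16.8% and 14%; 8 without Beta-endorphin 1 or 2, with 17.8% and 19.7%). It gave 4 without Control 1, Naloxone 1 and Naloxone 2 (7.45% of all genes) and 2 without the TRV130 libraries (8.12%). Code C against code A gave 12 in place of 19 without Control 1, Naloxone 1 and Naloxone 2 (18.7% of all genes). PDE4A with TRV130 changed sign, to 0.0319 without those 3 libraries. The mean AKAP6 fold change was 0.25 without Control 1 and 0.66 without Control 2. The fits without Control 1, Naloxone 1 and Naloxone 2 kept no code A Control and held Naloxone 3 alone for naloxone. The causes were not tested. Same-numbered libraries deviated together (correlation over 0.1) in 29 of 35 pairs that share a code and in 0 of 10 that do not. The replicate block called 0 of the 38 genes in each treatment comparison. ADCY10 and the 6 untested genes had few reads.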
